A study of Mus musculus with 257 samples.

Results

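Tnfrsf10b, Traf4, Cd109, Zbtb42, Met and Ddit4l, 6 of the 32075 genes in the count table, were followed through mouse cerebella and tumours with and without floxed alleles of the X-linked RNA helicase gene Ddx3x. They were chosen by their fold changes: an earlier reading of these libraries found them raised in cerebella of a Shh medulloblastoma model with Ddx3x-deleting genotypes at postnatal day 5 (P5) or P13. Their differences in those comparisons therefore describe the choice and are given without a test. Tests were made in cerebella of the normal background and of a Wnt model, at the other ages of the Shh model, between tumours and between controls.

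The RNA sequencing covered 227 libraries of cerebella (79 of the normal background, 72 of the Wnt model and 76 of the Shh model) and 30 of tumours. Cerebella were taken in the embryo (E16.5), at P5, P13 and a last age labelled P30+, and each background had 4 genotypes at each age. The normal background has WT animals as its control. BCP is the control of the Wnt model and carries Blbp-Cre, a recombinase driven in hindbrain progenitors, with alleles of Ctnnb1 and Pik3ca. BPtch is the control of the Shh model and carries Blbp-Cre with an allele of Ptch1. None of these controls carries a floxed Ddx3x allele, and the WT labels do not name Blbp-Cre. In each background FLY stands for males with 1 floxed copy of Ddx3x and Blbp-Cre, FL/FL for females with 2 floxed copies and FLPlus for heterozygous females, in which 1 copy is floxed and the other intact. With the other alleles of the background these are BD-FLY, BD-FL-FL and BD-FLPlus in the normal background, BDCP-FLY, BDCP-FLFL and BDCP-FLPlus in the Wnt model, and BPtchD-FLY, BPtchD-FLFL and BPtchD-FLPlus in the Shh model. The tumours were BPtch, BPtchD-FLY and BPtchD-FLPlus tumours of the Shh model and BCP and BDCP-FLY tumours of the Wnt model, which the labels call implants. Cre acts in progenitors and their descendants only, so each cerebellum also held cells with intact Ddx3x. The labels do not give the sex of the control animals. Xist exceeded Ddx3y, the female pattern, in 3, 1 and 2 of 5 WT libraries at P5, P13 and P30+, in 0, 1 and 0 of 5 BCP libraries and in 2, 2 and 3 of 5 BPtch libraries, and in every FL/FL and FLPlus cerebellum. The part of sex in FL/FL against these controls was not tested there, while FL/FL against FLPlus compares females. At E16.5 several embryos share an animal number in their titles, within and across groups, read here as a litter. All 5 BPtch embryos share 1 number, which no BPtchD embryo has, so that litter and genotype cannot be told apart there.

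The 6 genes have separate known roles. Tnfrsf10b encodes the mouse TRAIL receptor, a cell surface receptor that can start apoptosis and a known target of the transcription factor p53, and Traf4 encodes an adaptor protein of the family that couples receptors of the tumour necrosis factor family to signalling. Cd109 encodes a membrane-anchored protein that binds TGF-beta and limits its signal, Zbtb42 a zinc-finger transcription factor, Met the receptor tyrosine kinase for hepatocyte growth factor, and Ddit4l (also called REDD2) an inhibitor of the growth-promoting kinase complex mTORC1. In the developing cerebellum Shh drives the division of granule neuron progenitors, and loss of Ptch1 keeps that signal on.

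Library totals ran from 614465 to 92341867 counts with a median of 19719551. Levels are given as CPM, the counts of a gene when a library's total is scaled to 1e+06, and low levels rest on few counts: Tnfrsf10b had 18 to 47 counts per library in WT at P5 and 83 to 241 in BD-FL-FL. Ddx3x was at 341 ± 27.9 CPM (SD, n = 5) in WT at P13, 144 ± 29.97 in BD-FLY and 331 ± 14.8 in BD-FL-FL. In the Shh model at P13 it was at 395 ± 44.0 CPM in BPtch, 134 ± 23.8 in BPtchD-FLY and 383 ± 40.5 in BPtchD-FLFL (n = 5 each). At P13 the total Ddx3x count was thus low in FLY and near the control in FL/FL. At P5 it was 466.4 ± 97.5 CPM in WT, 247 ± 14.7 in BD-FLY, 331 ± 32.7 in BD-FL-FL and 348 ± 37.8 in BD-FLPlus (n = 5 each). BD-FL-FL differed from BD-FLPlus by -0.12 on the log2 scale (edgeR adjusted p = 0.842) and from WT by -0.46 (0.0601). In the Shh model at P5 Ddx3x was at 412 ± 133 CPM in BPtch and 342 ± 54.9 in BPtchD-FLFL (n = 5 each). At E16.5 it was near the control in FLY of the Wnt model, with 390 CPM in BDCP-FLY and 392 in BCP (group means). In the other backgrounds the FLY means were lower, with 345 in BD-FLY and 404 in WT, and 388 in BPtchD-FLY and 455 in BPtch. The BPtchD-FLY embryos, at 373 to 401 CPM, all lay below the BPtch embryos, at 436 to 478. The table does not show which exons the counted reads came from. The library labelled BPtchD-FLY P5 replicate 2 went against its label, with Xist at 1758 CPM, Ddx3y at 0.303 and Ddx3x at 436. The library labelled BPtchD-FLY P30+ replicate 1 had the fewest counts of all and also went against its label, with Xist at 308 CPM, Ddx3y at 99.3 and Ddx3x at 345, and Tnfrsf10b and Met were at 0 in it.

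On the assembly GRCm38 (GENCODE M21) Tnfrsf10b (ENSMUSG00000022074) spans chr14:69767472-69784411 on the plus strand and Traf4 (ENSMUSG00000017386) spans chr11:78158499-78165589 on the minus strand. Cd109 (ENSMUSG00000046186) spans chr9:78615546-78716253, Zbtb42 (ENSMUSG00000037638) chr12:112678828-112682747, Met (ENSMUSG00000009376) chr6:17463800-17573980 and Ddit4l (ENSMUSG00000046818) chr3:137621612-137628333, all on the plus strand. Cd109 overlaps the antisense gene 4921509A06Rik, and the strand setting of the counting is not known here. Promoter windows of RefSeq on GRCm38.p6 (250 bases before to 50 bases after a start) matched 4 of the 6 genes. Because Tnfrsf10b and several genes below are known p53 targets, the windows were searched on both strands for a p53 decamer. Its pattern was RRRCWWGYYY (R is A or G, W is A or T, Y is C or T), a part of a p53 site and not a whole one. It was present in 2 of the 4 windows, against 8.356% of all 32851 windows. The hexamer GGGCGG, the GC box, was present in 4 of 4, against 35.658%. Each sequence below is a stretch of 100 bases with the p53 decamer in capitals, which lies 90 to 81 bases before the RefSeq start of Ddit4l (chr3:137623537-137623636, plus strand, within the GENCODE span of the gene) and 199 to 190 bases before that of Zbtb42 (chr12:112678596-112678695, plus strand, 5′ of the GENCODE gene).
Ddit4l: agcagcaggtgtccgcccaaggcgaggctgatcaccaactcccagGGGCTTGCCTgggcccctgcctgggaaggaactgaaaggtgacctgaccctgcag
Zbtb42: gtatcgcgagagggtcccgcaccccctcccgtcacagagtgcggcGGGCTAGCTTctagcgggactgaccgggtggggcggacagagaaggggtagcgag
A match describes these letters only. Tnfrsf10b and Cd109 are given without a sequence.

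In the Shh model each of the 6 genes lay higher in FL/FL than in BPtch cerebella at P5, P13 or both. Traf4 stood clear of BPtch at P5 alone, Met at P13 alone and the other genes at both ages. In FL/FL against BPtch 1.79% of all genes at P5 and 6.24% at P13 had an edgeR adjusted p under 0.05. The share of all genes that stand clear in this way was not computed. The plot of levels by library in the Shh background shows these groups at all 4 ages. Tnfrsf10b, the death receptor, was at 1.74, 0.567, 0.988, 1.89 and 1.62 CPM in the 5 BPtch libraries at P5 and at 6.63, 6.75, 9.66, 5.60 and 6.96 in BPtchD-FLFL. At P13 the same receptor was at 0.798, 1.20, 0.682, 1.28 and 0.735 CPM in BPtch and at 3.15, 3.76, 5.49, 3.2 and 4.28 in BPtchD-FLFL. At both ages every FL/FL library lay above every BPtch library, and the log2 fold change on TMM-normalised counts was 2.38 ± 0.31 (standard error, as for every fold change below) at P5 and 2.09 ± 0.25 at P13. Traf4, the adaptor, was at 58.8, 45.4, 49.1, 54.7 and 66 CPM in BPtch at P5 and at 120, 136, 153, 141 and 144 in BPtchD-FLFL (log2 fold change 1.35 ± 0.11). At P13 its groups overlapped, with 25.4 to 44.4 CPM in BPtch and 29.4 to 71.4 in BPtchD-FLFL (0.50 ± 0.20).

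Cd109, the TGF-beta binding protein, had the widest difference of the 6 genes at P13. It was at 9.48, 4.48, 3.68, 7.40 and 9.73 CPM in BPtch at P5 and at 15, 26.5, 39.4, 14.7 and 24.7 in BPtchD-FLFL. At P13 it was at 2.32, 3.74, 1.23, 1.87 and 2.20 CPM in BPtch and at 110, 104, 121, 14.5 and 14.0 in BPtchD-FLFL. The 5 FL/FL libraries at P13 thus fell into 3 above 100 CPM and 2 near 14, all above BPtch, and the log2 fold change was 1.79 ± 0.31 at P5 and 5.06 ± 0.57 at P13. Met, the growth factor receptor, split the same libraries at P13, with 9.23, 9.95, 10.47, 3.57 and 3.35 CPM in BPtchD-FLFL against 1.22, 1.29, 0.639, 0.549 and 0.939 in BPtch (3.00 ± 0.35). At P5 Met overlapped between the groups, with 2.89 to 6.24 CPM in BPtch and 4.81 to 8.78 in BPtchD-FLFL (0.41 ± 0.21).

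The transcription factor gene Zbtb42 was at 2.04, 0.928, 1.63, 1.57 and 2.09 CPM in BPtch at P5 and at 4.69, 5.48, 6.73, 6.12 and 6.02 in BPtchD-FLFL (1.82 ± 0.23). At P13 it was at 0.657, 1.20, 0.942, 1.13 and 0.531 CPM in BPtch and at 6.08, 5.55, 10.2, 4.78 and 4.73 in BPtchD-FLFL (2.81 ± 0.29). Ddit4l, the mTORC1 inhibitor, was at 2.79, 3.56, 3.95, 2.29 and 3.41 CPM in BPtch at P5 and at 11.4, 11, 12.2, 12.1 and 13.9 in BPtchD-FLFL (1.92 ± 0.32). At P13 Ddit4l was at 1.57, 1.77, 1.55, 1.28 and 1.84 CPM in BPtch and at 6.65, 6.66, 9.64, 5.43 and 6.99 in BPtchD-FLFL (2.14 ± 0.24). Both genes separated the groups completely at both ages, and the share of all genes that do so was not computed.

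**Figure D1:**
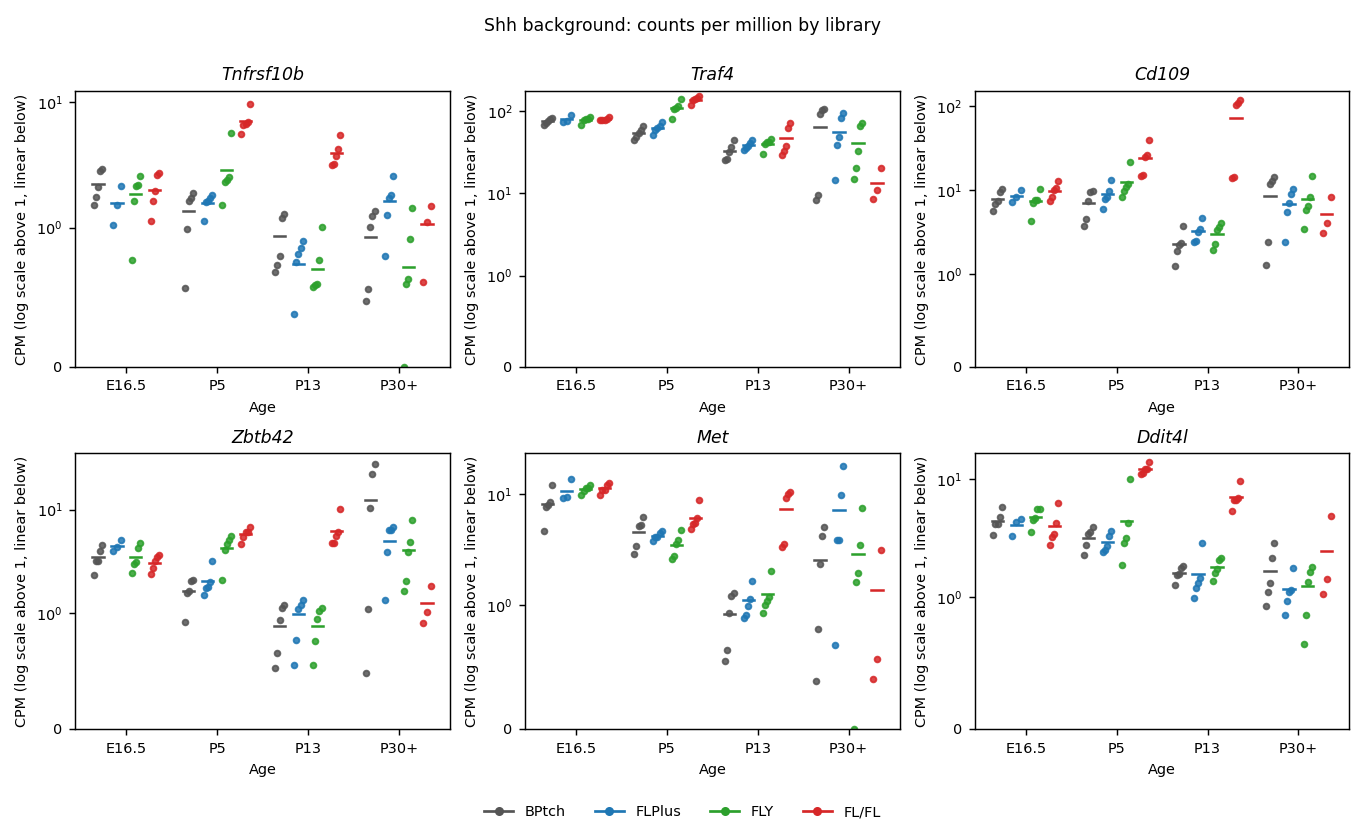
Level of each gene in every cerebellar library of the Shh background, in CPM (y axis linear below 1 and logarithmic above), by age and genotype, with a bar at each group mean. At P13 the FL/FL libraries of Cd109 lie at 14.0 to 121 CPM and those of BPtch at 1.23 to 3.74.

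BPtchD-FLY cerebella carried part of this pattern at P5 and little of it at P13. At P5 Traf4 was at 110, 142, 106, 81.3 and 115 CPM in BPtchD-FLY and Zbtb42 at 5.09, 5.52, 4.66, 2.10 and 4.07, all above the 5 BPtch libraries, where 24.2% of all genes were called, although the lowest Zbtb42 value lay only just above the highest of BPtch, 2.09. Tnfrsf10b was at 2.54, 5.70, 1.51, 2.31 and 2.41 CPM and Ddit4l at 2.91, 9.95, 1.87, 3.17 and 4.23, and for both the highest value came from replicate 2, the library that went against its label. The log2 fold change of FLY against BPtch at P5 was 0.96 for Tnfrsf10b, 0.91 for Traf4, 0.74 for Cd109, 1.26 for Zbtb42, -0.52 for Met and 0.33 for Ddit4l. Without replicate 2 these values were 0.57, 0.80, 0.45, 1.15, -0.65 and -0.19 in the same order. At P13 the FLY values ran from -0.39 for Tnfrsf10b to 0.44 for Cd109. In BPtchD-FLPlus the 6 genes stayed within 0.52 of BPtch on the log2 scale at both ages.

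An adjusted p under 0.05 (edgeR's quasi-likelihood test, Benjamini-Hochberg adjustment over all genes tested) is the mark of a called gene here. No call of the 6 genes is read from the comparisons that chose them. The smallest FL/FL values there were those of Met at P5 (0.41) and Traf4 at P13 (0.50). Leaving out each FL/FL library at P13 in turn moved Cd109 between 4.79 and 5.33, Met between 2.83 and 3.18 and Traf4 between 0.30 and 0.62. The summed level of 6 microglial marker genes moved with these libraries: it was 57.8 to 104 CPM in BPtch at P13 and 259, 211, 246, 123 and 141 in BPtchD-FLFL in replicate order, so the 3 libraries highest in Cd109 and Met were also the 3 highest in these markers. The summed astroglial markers split the same libraries, with 3476, 3083, 3180, 2215 and 2242 CPM in BPtchD-FLFL at P13 and 1780 to 2507 in BPtch, and Gfap differed by 2.15 on the log2 scale. Zbtb42 was also highest in these 3 libraries. Tnfrsf10b and Ddit4l were highest in replicate 3 and next in replicate 5, and Traf4 was highest in replicate 5 and next in replicate 4. Replicate 1, highest in both sums, was the lowest of the 5 in Tnfrsf10b and ranked 4 of 5 in Traf4 and Ddit4l. At P5 the microglial sum was 79.2 to 116 CPM in BPtch and 121 to 161 in BPtchD-FLFL. The part of these cells in the levels was not tested, and in whole tissue more cells of a type and more RNA per cell cannot be told apart.

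Normal cerebella, which the rule for choosing the genes did not use, showed 3 of the 6 genes raised in FL/FL at P5, 2 at P13 and 1 at P30+. At P5 Tnfrsf10b rose 5.12-fold, Ddit4l 4.41-fold and Traf4 2.11-fold. At P13 Cd109 rose 13.8-fold and Zbtb42 3.86-fold, and at P30+ Cd109 was called alone. In all 6 of 24 gene-by-age values were called in FL/FL against WT, all of them higher, beside 0.778% of the values of all genes.

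Tnfrsf10b was at 1.44, 1.74, 2.25, 1.86 and 1.01 CPM in WT at P5 and at 4.15, 10.7, 6.93, 10.6 and 9.41 in BD-FL-FL (log2 fold change 2.36 ± 0.24, edgeR adjusted p = 6.72e-05). Traf4 was at 89.5, 91.7, 78.6, 66.7 and 60.7 CPM in WT and at 112, 190, 161, 180 and 152 in BD-FL-FL (1.08 ± 0.15, adjusted p = 0.000836). Ddit4l was at 2.30, 2.51, 2.16, 2.77 and 2.79 CPM in WT and at 6.4, 13.3, 9.58, 12.4 and 12.3 in BD-FL-FL (2.14 ± 0.23, adjusted p = 0.000104). For these 3 genes all 5 FL/FL libraries lay above all 5 WT libraries, and replicate 1 was the lowest of the 5 each time. Of all genes 1.53% were called in this comparison. Cd109 missed the threshold at P5, with 11.7, 5.23, 11.5, 9.41 and 8.38 CPM in WT and 4.95, 26.3, 16.8, 44.5 and 26.6 in BD-FL-FL (1.38 ± 0.45, adjusted p = 0.142). Without BD-FL-FL replicate 1, where it lay below every WT library, it was called (1.66, adjusted p = 0.0369). Zbtb42 (0.50 ± 0.44, adjusted p = 0.539) and Met (0.61 ± 0.33, adjusted p = 0.346) overlapped with WT.

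At P13, where 0.46% of all genes were called, Cd109 was at 1.17, 1.26, 2.52, 2.65 and 2.41 CPM in WT and at 50.9, 18.8, 4.61, 16.8 and 45.6 in BD-FL-FL (log2 fold change 3.79 ± 0.49, edgeR adjusted p = 0.00119). The lowest FL/FL library still lay above the highest WT library. Zbtb42 was at 1.23, 0.553, 0.711, 0.689 and 1.46 CPM in WT and at 6.21, 2.83, 1.03, 2.10 and 5.53 in BD-FL-FL (1.95 ± 0.41, adjusted p = 0.0403). Its groups overlapped through FL/FL replicate 3, and the call was lost without FL/FL replicate 1 (adjusted p = 0.0727), replicate 5 (0.138), replicate 2 or any 1 WT library (adjusted p 0.0515 to 0.138 over these 8). Met was at 9.79, 2.56, 0.413, 0.978 and 4.57 CPM in BD-FL-FL against 0.453 to 1.48 in WT (1.97 ± 0.58, adjusted p = 0.151). Tnfrsf10b was at 8.64, 2.03, 1.10, 1.05 and 3.01 CPM against 0.469 to 1.26 (1.79 ± 0.50, adjusted p = 0.118). Ddit4l was at 14.9, 3.36, 0.963, 2.65 and 4.75 CPM against 0.469 to 4.32 (1.70 ± 0.64, adjusted p = 0.286), and Traf4 differed by 0.44 ± 0.15 (adjusted p = 0.241). FL/FL replicate 1 was the highest of the 5 libraries in all 6 genes, and replicate 3 was the lowest in 5.

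At P30+, where 0.684% of all genes were called, Cd109 was at 0.729, 0.317, 0.601, 1.31 and 0.778 CPM in WT and at 2.42, 0.456, 51.7, 2.50 and 27.3 in BD-FL-FL (4.46 ± 0.86, edgeR adjusted p = 0.0232). The high values were replicates 3 and 5, and without replicate 3 the log2 fold change was 3.36 (adjusted p = 0.0721). Leaving out WT replicate 1, 2, 3 or 4 also ended it (adjusted p at most 0.0801). Replicate 3 was the highest library in all 6 genes and replicate 5 the next in all 6. Met was at 0.177, 0.114, 7.57, 0.532 and 3.73 CPM in BD-FL-FL and at 0.469, 0, 0.710, 0.303 and 0.519 in WT (2.55 ± 0.91, adjusted p = 0.14). Zbtb42 (1.42, adjusted p = 0.0809), Ddit4l (1.35, 0.18), Tnfrsf10b (0.80, 0.292) and Traf4 (0.12, 0.74) were not called. At E16.5 the values of the 6 genes ran from -0.42 to 0.36, and edgeR called 0, with 0 at an unadjusted p under 0.05 and 0 by DESeq2.

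**Figure D2:**
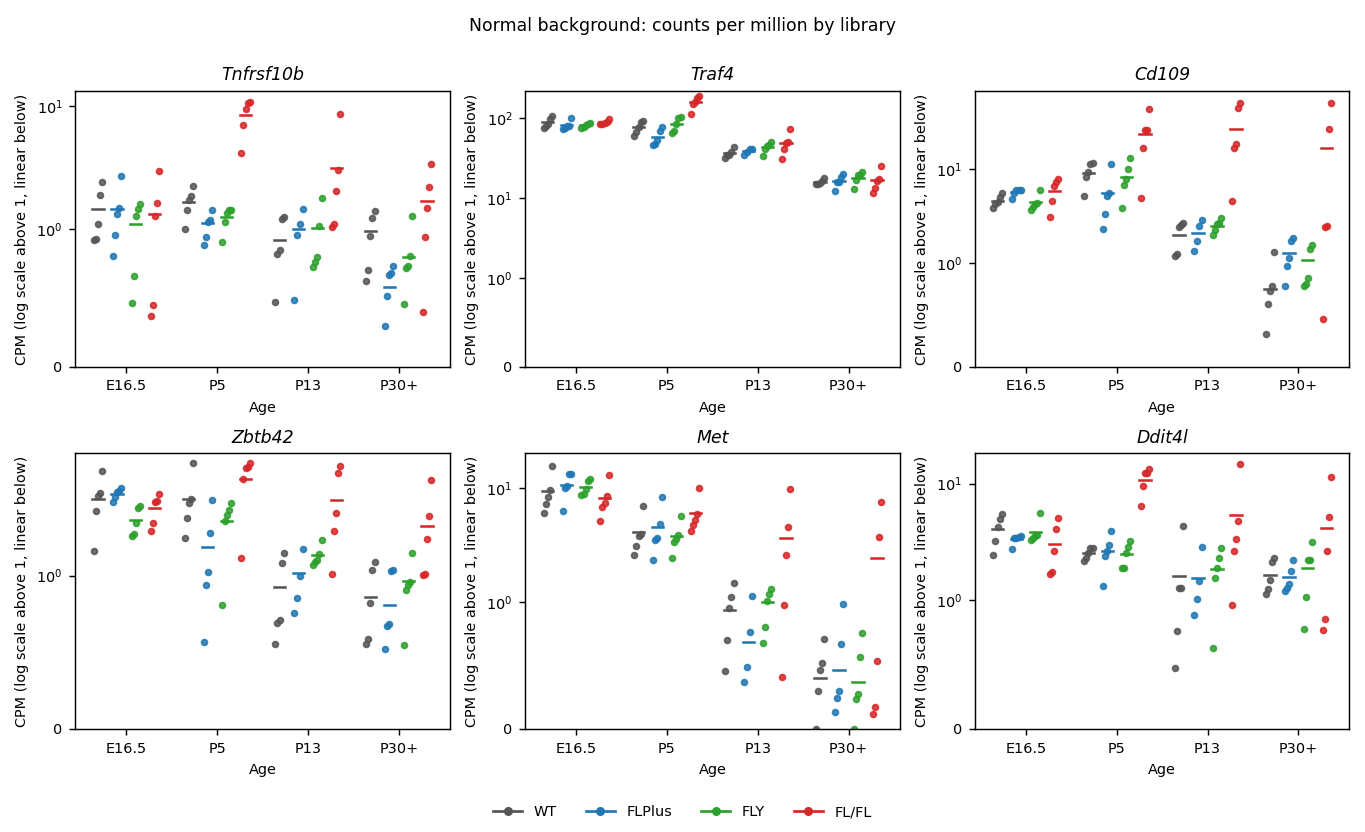
Level of each gene in every cerebellar library of the normal background, in CPM (y axis linear below 1 and logarithmic above), by age and genotype, with a bar at each group mean. At P5 the FL/FL libraries of Ddit4l lie at 6.4 to 13.3 CPM and the WT libraries at 2.16 to 2.79.

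The spread among FL/FL libraries of the normal background was shared between genes and moved with markers of microglia and, at P13, of astroglia. The sum of the 6 microglial markers was 261, 121, 48.4, 99.7 and 149 CPM in BD-FL-FL at P13 in replicate order and 55.0 to 154 in WT. At P30+ the sum was 72.3, 49.1, 197, 70.8 and 122 CPM in BD-FL-FL and 42.1 to 72.9 in WT. The libraries highest in the 6 genes, replicate 1 at P13 and replicate 3 at P30+, were also highest in these markers. At P5 the sum was 107, 160, 122, 197 and 134 CPM in BD-FL-FL and 87.2 to 113 in WT, with 2 of the 6 markers called, C1qb (log2 fold change 0.77) and C1qa (0.64), both complement genes of microglia. The summed astroglial markers at P13 were 3401, 2156, 2306, 2479 and 2857 CPM in BD-FL-FL in replicate order and 1360 to 2575 in WT, so that replicates 1 and 5 were the highest here too. Gfap, the filament gene of astrocytes, was called higher at that age (1.79, edgeR adjusted p = 0.0403), alone among the astroglial markers and beside 0.46% of all genes. At P30+ the astroglial sum was 3023 CPM in replicate 3, 2228 to 2442 in the other 4 and 2086 to 2572 in WT. At P5 the astroglial sum lay below the WT range, with 799 to 1402 CPM in BD-FL-FL and 1609 to 2644 in WT. Aqp4, a water channel of astrocytes, was called lower there by edgeR (-1.57), alone among the astroglial markers and beside 1.53% of all genes. Granule progenitor markers summed to 177 to 798 CPM in BD-FL-FL and 733 to 1325 in WT at P5, with 0 of 5 called by edgeR or DESeq2 and 0 at an unadjusted p under 0.05. At P5 Fabp7, a radial glia gene, was called lower (-0.70, edgeR adjusted p = 0.00524) and Dcn, a matrix gene of meningeal fibroblasts, higher (0.90, 0.00685). No other listed marker of radial glia or meningeal fibroblasts was called against WT, beside 1.53% of all genes. Against FLPlus Dcn (1.38) and Lum (1.42), another such gene, were both called higher, the other fibroblast markers were not called, and 1.31% of all genes were. BD-FL-FL P5 replicate 1 also stood apart in tissue content, with choroid plexus markers at 9.39 CPM against 2144 to 2935 in the other 4 and granule progenitor markers at 177 against 513 to 798. In WT at P5 the choroid plexus sum itself ran from 9.92 to 3227 CPM. The part of these cell types in the levels of the 6 genes was not tested.

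**Figure D3:**
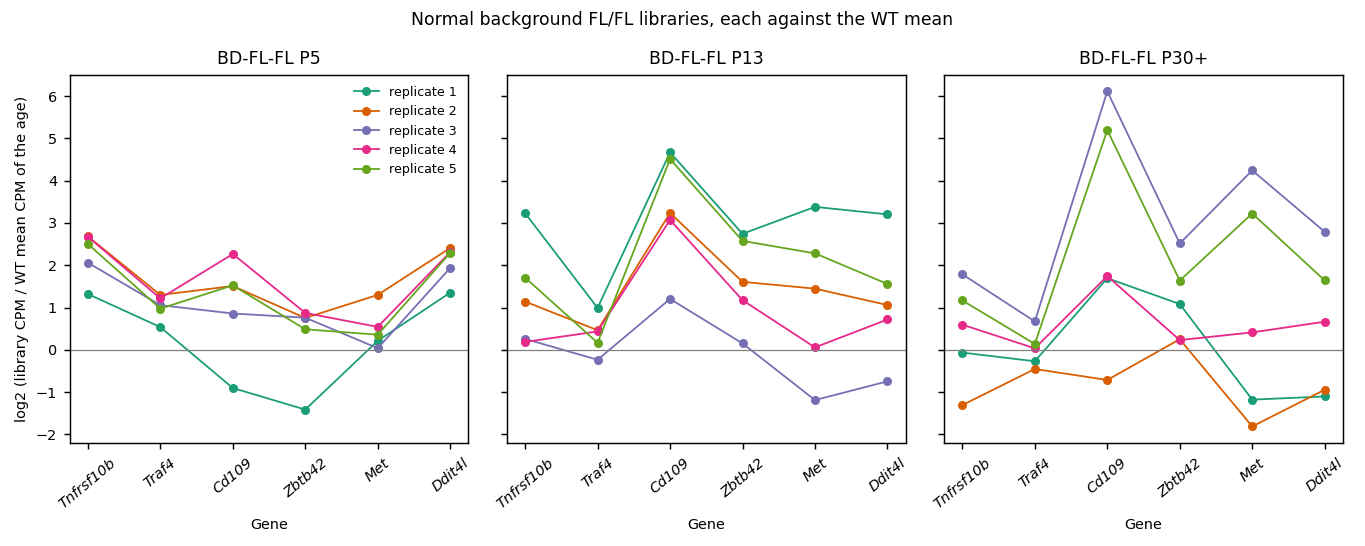
Log2 ratio of each BD-FL-FL library's CPM to the WT mean of the same age, for the 6 genes (x axis) at P5, P13 and P30+, with 1 line per library. At P13 the line of replicate 1 is the highest in all 6 genes, and at P30+ that of replicate 3 is.

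Against FLPlus, the females with 1 intact copy, FL/FL was higher in 5 of 60 gene-by-comparison values over the normal and Wnt backgrounds and the 2 ages of the Shh model that the choice did not use, beside 0.185% of the values of all genes. All 5 were in normal cerebella. At P5, where 1.31% of all genes were called, Tnfrsf10b was at 1.20, 0.883, 0.945, 1.43 and 1.15 CPM in BD-FLPlus (log2 fold change of FL/FL 2.83, edgeR adjusted p = 1.18e-05) and Traf4 at 78.8, 46.2, 69.5, 53.1 and 47.5 (1.39, adjusted p = 0.0001). Cd109 was at 11.5, 3.34, 5.57, 5.18 and 2.29 CPM in BD-FLPlus (2.05, adjusted p = 0.0285) and Ddit4l at 1.32 to 3.91 (1.97, adjusted p = 0.000171). At P13 Cd109 was at 1.70, 2.87, 2.50 and 1.35 CPM in the 4 BD-FLPlus libraries (3.76 ± 0.54, adjusted p = 0.0141), 1 of 4 genes called, 0.0214% of all. The Cd109 call at P5 was lost without FL/FL replicate 2, 4 or 5 or FLPlus replicate 2, 3, 4 or 5 (log2 fold change 1.68 to 2.06, adjusted p 0.0598 to 0.108), and that at P13 without any 1 of the 4 FLPlus libraries (adjusted p 0.0571 to 0.149). The comparison shares the FL/FL libraries with that against WT and is no second sample of them.

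In FLY and FLPlus of the normal background edgeR called none of the 6 genes at any age. The 24 FLY values ran from -0.50 to 0.57 (0.0527% of all genes' values called), with 0 at an unadjusted p under 0.05 and 0 called by DESeq2. The 24 FLPlus values ran from -1.07 to 0.78 (0.027% of all), with 1 at an unadjusted p under 0.05 and 0 called by DESeq2. The difference of FL/FL from FLY was then tested itself, a comparison chosen after seeing the data. It was called in 5 of 48 values over the normal and Wnt backgrounds, beside 0.476% of the values of all genes: Tnfrsf10b (log2 difference 2.70, adjusted p = 2.07e-05), Ddit4l (2.10, 0.0002) and Traf4 (0.89, 0.00499) in normal cerebella at P5, Cd109 (3.48, 0.00228) in normal cerebella at P13, and Zbtb42 in the lower direction (-1.85, 0.0395) in the Wnt model at P30+. FL/FL animals are female and FLY animals male, so the number of floxed copies and sex cannot be told apart in this comparison. The Zbtb42 call was lost without any 1 of the 5 BDCP-FLFL libraries or BDCP-FLY replicate 2 or 3 (-1.98 to -1.50, adjusted p 0.0604 to 0.133).

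In the Wnt model no FL/FL value of the 6 genes was called. Tnfrsf10b was at 0.966, 1.16, 1.55, 1.55 and 2.49 CPM in BCP at P5 and at 1.41, 1.84, 5.45, 2.51 and 2.81 in BDCP-FLFL (log2 fold change 0.84, edgeR adjusted p = 0.575). Traf4 was at 55.7, 91.9, 71.9, 73.7 and 78.5 CPM in BCP and at 78.9, 105, 144, 118 and 81.7 in BDCP-FLFL (0.49, adjusted p = 0.38). Ddit4l was at 1.26, 4.29, 3.17, 4.26 and 3.05 CPM in BCP and at 3.01, 3.64, 9.60, 2.00 and 4.16 in BDCP-FLFL (0.47). The groups overlapped for all 3 genes. Cd109 was at 3.31, 11.3, 5.08, 7.33 and 2.19 CPM in BCP at P13 and at 3.57, 11.3, 3.89, 15.4 and 1.33 in BDCP-FLFL (0.27). Zbtb42 was at 8.41, 14.5, 11.8, 7.09 and 7.92 CPM in BCP at P13 and at 1.72, 8.01, 9.69, 4.40 and 0.618 in BDCP-FLFL (-1.02), and Met differed by -0.75 and Ddit4l by -1.0. These 3 genes thus lay lower in FL/FL than in BCP, without a call.

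Of the 24 FL/FL values against BCP edgeR called 0 (0.183% of all genes' values), with 6 at an unadjusted p under 0.05 and 0 called by DESeq2. For FLY it called 0 of 24 (0.00133% of all, 3 unadjusted, 0 by DESeq2), and for FLPlus 0 of 24 (0.0345% of all, 2 unadjusted, 0 by DESeq2). The difference of the FL/FL effect between the normal and the Wnt background, also chosen after seeing the data, was called for 6 of 24 values, all higher in the normal background, beside 1.74% of the values of all genes. The share of female-pattern controls also differed between WT and BCP, as given above, and its part was not tested. BCP carries Blbp-Cre, which the WT labels do not name, and the part of this was not tested either. BCP itself lay above WT in Zbtb42 and Met at P13, as given below. The called differences were Ddit4l at P5 (log2 difference 1.69, adjusted p = 0.043), Cd109 (3.53, 0.0106), Zbtb42 (2.98, 0.0208), Met (2.72, 0.0368) and Ddit4l (2.71, 0.0314) at P13, and Cd109 at P30+ (5.83, 0.00237). Tnfrsf10b at P5 differed by 1.55 and missed the threshold (adjusted p = 0.0681). Without BD-FL-FL P13 replicate 1 the P13 differences of Met (2.00, adjusted p = 0.135) and Ddit4l (1.91, 0.129) were not called, and these calls were also lost without 9 and 8 other libraries. The Ddit4l difference at P5 was lost without any 1 of 12 of the 20 libraries (adjusted p 0.0514 to 0.118).

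At the ages of the Shh model that the choice did not use, edgeR called none of the 6 genes in FL/FL (0 of 12, 0.0151% of all genes' values), FLY (0 of 12, 0.0251%) or FLPlus (0 of 12, 0.0151%). The counts at an unadjusted p under 0.05 were 3, 1 and 0, and DESeq2 called 0 in each. The FLY count was also 0 without BPtchD-FLY P30+ replicate 1, the library against its label. At P30+ the BPtch libraries themselves were split: Traf4 was at 9.55, 8.44, 107, 103 and 92.8 CPM and Zbtb42 at 1.10, 0.488, 27.6, 22 and 10.4. The 3 high libraries came from animals that also gave a tumour library. The 3 BPtchD-FLFL libraries at P30+ held Traf4 at 20.2, 8.62 and 11.1 CPM (log2 fold change against BPtch -2.07, adjusted p = 0.306). Without the cerebella of animals with a tumour library the value was 0.52 (adjusted p = 1.0), so its direction rested on them. Of BPtch only replicates 1 and 2 were left in that fit.

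**Figure D4:**
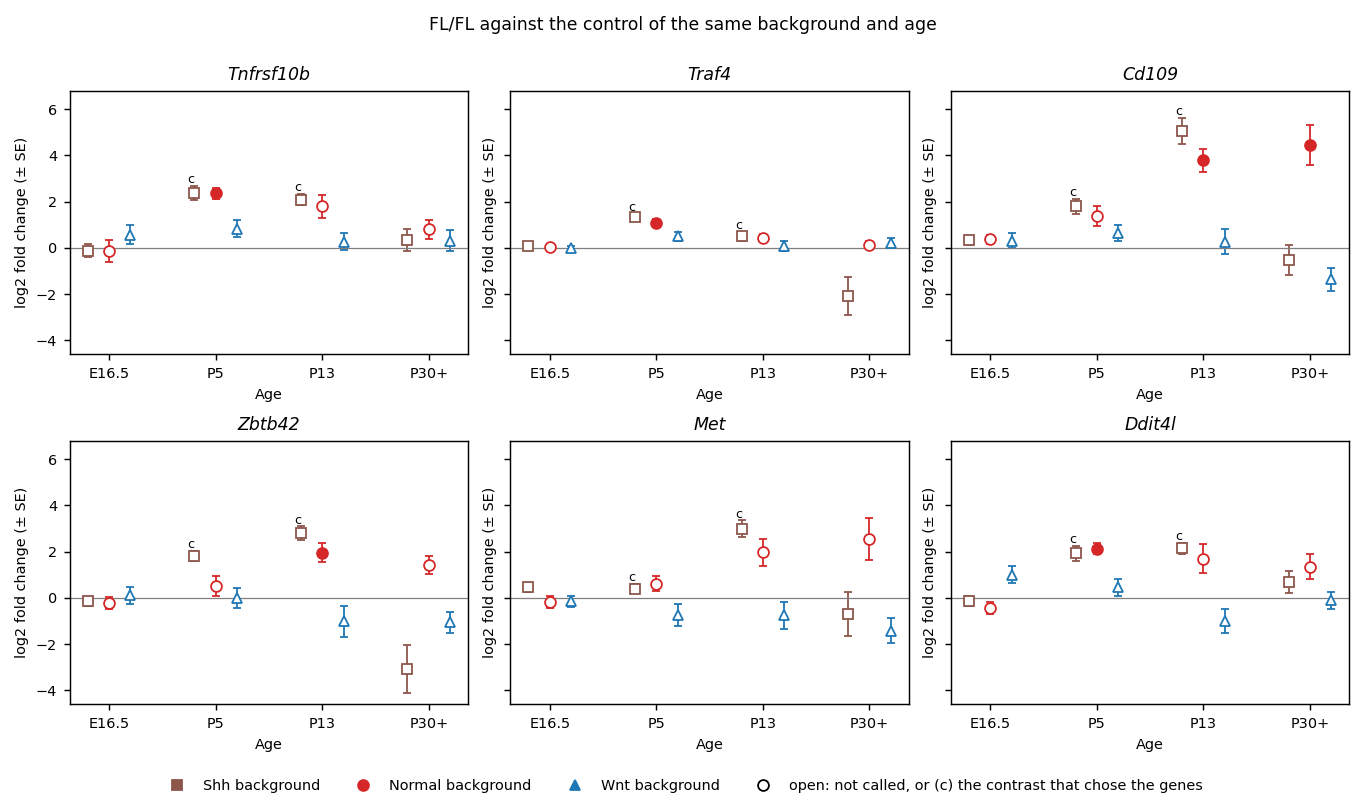
Log2 fold change of FL/FL against the control of the same background and age, with its standard error (y axis), at 4 ages (x axis), for the 6 genes and 3 backgrounds. Filled points are called, open points are not, and points marked c are the comparisons that chose the genes. The normal background holds 6 filled points and the Wnt background none.

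The lists of related genes gave a count for each pathway around the 6 genes, none of which is in a list. Of 21 p53 targets tested, 7 were called higher and 0 lower in normal FL/FL at P5: the cyclin gene Ccng1 (log2 fold change 1.49 ± 0.17, edgeR adjusted p = 0.000227), the stress sensor gene Sesn2 (1.12, 0.000568), the nuclease gene Aen (0.54, 0.00119), the polymerase gene Polk (0.68, 0.00449), and Fas, Cdkn1a and Phlda3. The median over the list was 0.54 and over all genes 0.02. Of all genes 1.53% were called in this comparison. The lists were chosen with earlier results of these data known. At P13 the list had 1 called member, the receptor gene Eda2r (1.63, edgeR adjusted p = 0.0391), beside 0.46% of all genes. In the Wnt FL/FL cerebella and in normal FLY at P5 it had 0 by edgeR and by DESeq2 (4 and 0 at an unadjusted p under 0.05), with medians of 0.13 and 0.07. In the Shh model 3 of 21 members were called in FL/FL at P5, beside 1.79% of all genes, with Ccng1 1.61 higher, and 7 of 21 at P13, beside 6.24% of all genes. These Shh counts are given as a description. In normal FL/FL at P5 edgeR called none of the 17 members of the death receptor list, 6 of the TRAF family, 14 of the HGF and MET list, 16 of the TGF-beta list, 13 of the mTORC1 list and 8 Shh targets. At an unadjusted p under 0.05 these lists had 4, 2, 3, 2, 1 and 0 members, and DESeq2 called 1 member of the HGF and MET list and 0 of each other list. Against FLPlus at P5, 2 of the 17 members of the death receptor list were called, beside 1.31% of all genes. They were the receptor gene Tnfrsf1a (0.75, edgeR adjusted p = 0.01) and the inhibitor gene Birc3 (0.80, 0.0428). In Shh FL/FL at P13, beside 6.24% of all genes, several of these lists had called members, given as a description. Tnfrsf1a (1.25), Ripk1 (0.54) and Casp8 (0.52) of the death receptor list were higher. Stat3 (0.52) and Spint1 (1.85) of the HGF and MET list were higher and Spint2 (-0.58) lower. Tgfb1 (0.59), Tgfbr1 (0.52) and Tgfbr2 (0.47) of the TGF-beta list were higher, and Nprl2 (-0.26) of the mTORC1 list lower.

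Wild-type cerebella showed where the genes stood without any deletion. Per kilobase of exon Traf4 was the highest at P5 with 23.5 CPM, followed by Cd109 at 1.34, Zbtb42 at 1.03, Ddit4l at 0.860, Met at 0.534 and Tnfrsf10b at 0.305. At P30+ Traf4 was at 4.86 CPM per kilobase and Met, the lowest, at 0.0521. Between successive ages 8 of 18 values were called, 7 of them lower at the later age, beside 31.6% of the values of all genes. From E16.5 to P5 Cd109 rose (log2 fold change 0.96, edgeR adjusted p = 0.0223) and Met fell (-1.25, 0.0246), with 22.2% of genes called. From P5 to P13 Cd109 (-2.0, 3.88e-05), Met (-1.89, 0.00134), Zbtb42 (-1.74, 0.0012) and Traf4 (-0.88, 4.23e-06) fell, with 38.3% of genes called. From P13 to P30+ Cd109 (-1.34, 0.00427) and Traf4 (-1.13, 2.94e-07) fell, with 34.1% called. The highest Cd109 level of a WT library at any age was 11.7 CPM, at P5, and 4 of the 5 BD-FL-FL libraries at P13 lay above it. The fall of Met from E16.5 to P5 was lost without any 1 of 5 libraries (adjusted p 0.0505 to 0.0872), and the rise of Cd109 without WT P5 replicate 1 or 3 or E16.5 replicate 4 (0.0548 to 0.0629).

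Some of the same genes were higher in the tumour-model controls than in WT. BCP and BPtch against WT gave 8 called values of 36, all higher, beside 13.6% of the values of all genes. In BCP at P5, with 8.76% of genes called, Met was at 2.86, 15.7, 14.2, 12.7 and 11 CPM against 3.82, 6.97, 2.59, 3.98 and 3.13 in WT (log2 fold change 1.56, edgeR adjusted p = 0.00597), and Zbtb42 differed by 1.63 (0.00543). At P13, with 12% of genes called, Zbtb42 differed by 3.39 (2.59e-05) and Met by 2.34 (0.00273). BCP cerebella at P13 thus held Zbtb42 at 7.09 to 14.5 CPM, above the 1.03 to 6.21 of the BD-FL-FL libraries. In BPtch at P30+, with 46.2% of genes called, Zbtb42 (3.67, 2.19e-05), Cd109 (3.33, 0.000277), Met (2.46, 0.0177) and Traf4 (1.86, 0.000629) were higher. Without the animals that also gave a tumour library the values were -0.11, 1.28, 0.55 and -0.80, and edgeR called none (adjusted p 0.979, 0.6, 0.911 and 0.472). Of BPtch only replicates 1 and 2 were left there, so these values rest on few libraries. With all animals the Met call was also lost without BPtch replicate 4 (2.09, 0.0609).

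In tumours all 6 genes were called between the 2 models, 4 between the Wnt-model implants and none by edgeR between the Shh-model genotypes. Over 4 comparisons 10 of 24 values were called, 6 higher and 4 lower, beside 28.5% of the values of all genes. BCP implants against BPtch tumours, with 61% of genes called, had Ddit4l (log2 fold change 3.92, edgeR adjusted p = 3.44e-08), Cd109 (3.49, 1.54e-07), Tnfrsf10b (3.13, 5.98e-09) and Met (1.75, 3.31e-05) higher and Traf4 (-1.23, 0.001) and Zbtb42 (-0.91, 0.0406) lower. The Zbtb42 call was lost without any 1 of the 5 BCP implants or BPtch tumour replicate 1, 2, 3 or 4 (-0.93 to -0.60, adjusted p 0.0531 to 0.203). Tnfrsf10b was at 0.898 to 2.02 CPM in the 5 BPtch tumours and at 13.6, 12.4, 19.0, 13 and 4.48 in the 5 BCP implants. The BPtch tumours are not labelled implants, so model and implantation cannot be told apart here. Xist exceeded Ddx3y in 5 of 5 BCP implants and in 1 of 5 BPtch tumours, and the part of sex was not tested. Cell markers differed as well, with Dcn at 6.76 and Atoh1, a granule progenitor gene, at -8.62 on the log2 scale. The part of cell content in the 6 genes was not tested.

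Implants labelled BDCP-FLY against BCP implants, with 52.8% of genes called, had Tnfrsf10b and Met higher and Ddit4l and Zbtb42 lower. Tnfrsf10b had a lowest value of 39.2 CPM, a median of 49.0 and a highest of 76.0 in the 10 BDCP-FLY implants (log2 fold change 1.95 ± 0.27, edgeR adjusted p = 8.6e-07). Met had 26.2, 39.3 and 60.4 CPM by the same measures, against 6.30, 11.9, 11.2, 19.7 and 4.48 in BCP (1.84 ± 0.29, adjusted p = 4.94e-06). Ddit4l had 1.08, 2.55 and 5.66 CPM against 20.8, 30.3, 35.8, 61 and 8.03 (-3.62 ± 0.33, adjusted p = 1.76e-09), and none of the 3 genes overlapped between the groups. Zbtb42 was lower (-1.12 ± 0.32, adjusted p = 0.00424), and Cd109 (-0.47) and Traf4 (-0.04) were not called. Ddx3x was at 518 ± 67.1 CPM (SD, n = 10) in the implants labelled BDCP-FLY and at 493.2 ± 94.2 (n = 5) in BCP, and in 8 of those 10 Xist exceeded Ddx3y, so these libraries do not show the low Ddx3x level and male pattern of their label. All BCP implant labels share 1 animal number prefix, and whether the implants are independent tumours is not given. Meningeal fibroblast markers summed to 37.8 to 1473 CPM in BDCP-FLY and 87.9 to 4543 in BCP, and granule progenitor markers to 695 to 1461 and 78.5 to 601. The part of these cells in the levels was not tested.

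BPtchD-FLY tumours, with Ddx3x at 110 ± 26.6 CPM against 657 ± 78.1 in BPtch tumours (SD, n = 5 each), had 0 of 6 genes called by edgeR (1 at an unadjusted p under 0.05). Of all 20327 genes edgeR called 25 in this comparison. Met was at 5.31 to 10.7 CPM against 2.75 to 4.02 in BPtch tumours (log2 fold change 1.29, edgeR adjusted p = 0.0924), and DESeq2 called it (1.31, adjusted p = 0.0108). In BPtchD-FLPlus tumours Met was at 4.07 to 11.3 CPM (1.09, adjusted p = 1.0), with 0 of 6 genes called by edgeR or DESeq2 and 2 at an unadjusted p under 0.05. Of all 20327 genes edgeR called 5 there. In both genotypes every tumour lay above every BPtch tumour in Met. The share of all genes that separate so was not computed. Xist exceeded Ddx3y in 0 of 5 BPtchD-FLY, 5 of 5 BPtchD-FLPlus and 1 of 5 BPtch tumours, and the part of sex was not tested.

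**Figure D5:**
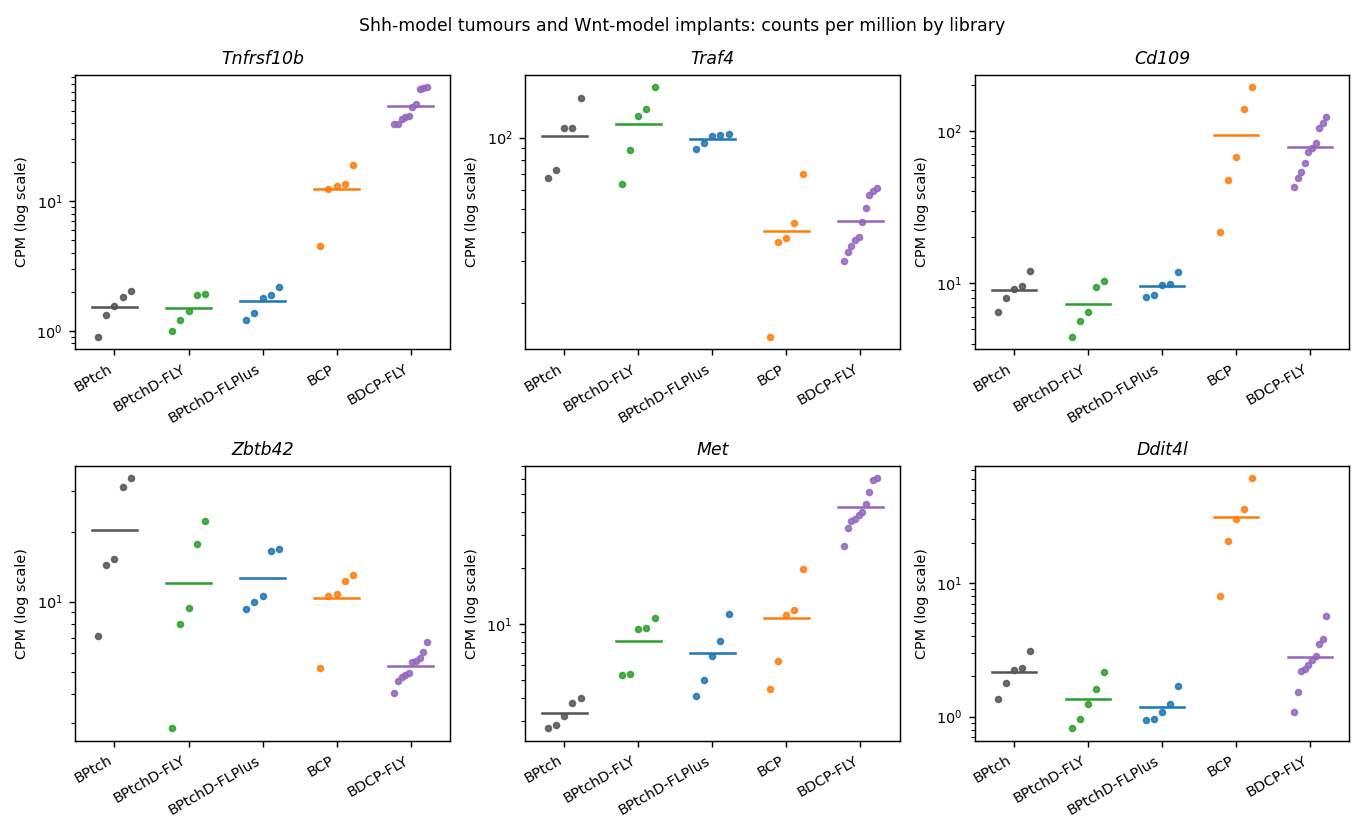
Level of each gene in every tumour library, in CPM on a logarithmic y axis, by tumour group, with a bar at each group mean. Ddit4l lies at 8.03 to 61 CPM in the BCP implants and at 1.08 to 5.66 in the implants labelled BDCP-FLY.

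Genes whose levels most resembled those of 5 of the 6 were ranked by Pearson's r over 48 cerebellar group means of log2 CPM, centred on the 12 groups of each age, among 12801 protein-coding genes. The groups share controls and ages, and the means include those that chose the genes, so r is a description. Tnfrsf10b was nearest to Ccng1 (r = 0.83), Traf4 to Map4k4 (0.92), Cd109 to Osmr (0.93), Zbtb42 to Cebpa (0.88) and Ddit4l to Trim47 (0.85). Among the 6 genes Met and Zbtb42 were the most alike (0.85), then Tnfrsf10b and Ddit4l (0.81), and Traf4 and Ddit4l the least (0.24).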

How the data were processed

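The authors deposited 1 table of raw counts per gene for 32075 genes, of which 31711 carry a symbol. HISAT2, featureCounts and the assembly GRCm38 are named per the submitters' processing notes, and versions, annotation release and strand setting are not given in the sources used. Per the labels' protocols, tissue was flash frozen and RNA was extracted with Trizol.

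Groups came from the labels of genotype, age and tissue (53 groups of 3 to 10 libraries). In BPtch at P13 the titles of replicates 3 and 4 name day 14. The 6 genes and all lists were chosen with earlier results of these data known. The deposited counts went into edgeR 4.0.16 (R 4.3.3) with TMM normalization, filterByExpr (minimum count 10, total 15), the two-sided quasi-likelihood F-test within each background and age, and Benjamini-Hochberg adjustment over all genes tested at 0.05. Its p-values reflect how these libraries vary within groups. Levels are CPM of the library total, and ± after a level is the SD and after a fold change the standard error.

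The text names the 6 genes in every comparison, Ddx3x, Ddx3y and Xist as a check of labels, from each of 9 pathway lists up to 4 called members per comparison with the smallest adjusted p, and per member its nearest of 3 ranked genes in pattern (mean log2 CPM at least 1, prior count 2). The nearest gene of Met is not reported here. Fas, Cdkn1a and Phlda3, beyond those 4, were named after their values were seen. So were the marker genes C1qb, C1qa, Aqp4, Gfap, Fabp7, Dcn, Lum and Atoh1. Each of these was tried instead: DESeq2 1.42.0, edgeR with DESeq2's size factors, keeping all low counts, blocking on the replicate number, 1 fit over the 12 groups of an age, leaving out animals with a tumour library, and leaving out each library in turn. The fits were tested on simulated data with 200 changed genes.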

Additional observations from a re-analysis of the deposited data

Results flagged for a closer look

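Among 288 gene-by-group sets of 4 to 10 libraries, 17 had 1 library standing apart from the others by Dixon's test at 95%, a rate close to the 1 in 20 that chance gives. In 14 of them the library was high. BPtchD-FLY P5 replicate 2, whose Xist level goes against its label, stood apart for Cd109 (21.595 CPM) and Tnfrsf10b (5.702). BD-FL-FL P13 replicate 1 stood apart for Ddit4l (14.854) and Tnfrsf10b (8.639), and WT P13 replicate 3 for Ddit4l (4.319). For Ddit4l the others were BD-FLY E16.5 replicate 4 (5.545), BDCP-FLFL P5 replicate 3 (9.601) and BPtchD-FLPlus P13 replicate 2 (2.894) on the high side and BD-FLPlus E16.5 replicate 3 (2.721) and BDCP-FLPlus P30+ replicate 2 (1.054) on the low side. For Met they were BDCP-FLPlus P5 replicate 2 (25.676), BPtchD-FLY P13 replicate 2 (2.02) and BDCP-FLFL P30+ replicate 2 (1.009). For Zbtb42 they were BPtchD-FLFL P13 replicate 3 (10.174) and BDCP-FLFL P30+ replicate 4 (1.749). For Traf4 they were BD-FLPlus E16.5 replicate 3 (99.716, high) and BDCP-FLY P5 replicate 3 (48.484, low).

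The FL/FL and FLY effects differed in normal cerebella at P5 for Tnfrsf10b (log2 difference 2.6969), Ddit4l (2.0997) and Traf4 (0.8859), at P13 for Cd109 (3.4754), and in the Wnt model at P30+ for Zbtb42 (-1.8529). The FL/FL effect differed between the normal and the Wnt background for Ddit4l at P5 (1.6945), for Cd109 (3.5286), Zbtb42 (2.9775), Met (2.724) and Ddit4l (2.7081) at P13, and for Cd109 at P30+ (5.8315). Each of these differences was itself tested with edgeR's quasi-likelihood test.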

How the results depend on the processing

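The rises of Tnfrsf10b (2.23 to 2.52), Traf4 (1.01 to 1.17) and Ddit4l (2.06 to 2.27) in normal FL/FL at P5 and of Cd109 at P13 (3.47 to 4.06) were called against WT under every alternative run. Other counts moved. DESeq2 called 10 values in normal FL/FL where edgeR called 6, 9 against FLPlus and 9 against FLY where edgeR called 5 each. A fit of all 12 groups of an age called 8 against FLPlus, and 2 for Shh FL/FL at E16.5 and P30+ where the separate fits called 0. Of these 2 Shh values Traf4 at P30+ was lower (-2.13, edgeR adjusted p = 0.0119), a direction that rested on animals with a tumour library, as given above. Without animals with a tumour library the model controls had 5 called values instead of 8. With each library left out, the counts ran from 5 to 8 for normal FL/FL, 0 to 1 for normal FLPlus (1 without BD-FLPlus P5 replicate 1), 4 to 7 against FLPlus, 4 to 6 against FLY, 4 to 7 for the difference between backgrounds, 6 to 10 for WT ages, 7 to 9 for the model controls and 9 to 10 for tumours.

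Signs turned in 5 values: Traf4 in normal FL/FL at P30+ without BD-FL-FL replicate 3 (-0.0795, up to 0.2152 without another library), Cd109 in Wnt FL/FL at P13 without BDCP-FLFL replicate 4 (-0.1886, up to 0.6838 without another), and, without animals with a tumour library, Traf4 in Shh FL/FL at P30+ (0.5166) and Traf4 (-0.8025) and Zbtb42 (-0.1074) in BPtch against WT at P30+. The first 3 were not called with all libraries. Of 796 single values with 1 library left out, 80 lost a call and 7 gained one, and of 71 without the low-count filter 4 lost one. The cause was not tested.

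The replicate numbers did not pair libraries: same-number correlations ran from -0.838 to 0.941 in 14 fits. With the replicate number as a block the calls against FLPlus fell to 3 and those in normal FL/FL to 4, where Zbtb42 at P13 (1.91, adjusted p = 0.0673) and Cd109 at P30+ (3.77, adjusted p = 0.0553) were lost. The other blocked counts were 8 for tumours, 7 for WT ages, 8 for the model controls, 4 against FLY and 5 between backgrounds, and 0 where the count was 0. The E16.5 animal number as a block could not be fitted for the model controls. Levels under 1 CPM rest on few counts, and smaller differences were not detectable there.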
